A study of Drosophila melanogaster with 12 samples.

Results

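A set of 115 genes had little or no transcript in untreated S2R+ cells and was detected in every library of cells that received the RNA-binding protein Elav, Fne or Rbp9. The members were chosen from the measured values: at most 0.5 CPM (reads scaled to a common library total) in both untreated libraries and at least 1 CPM in each of 6 transfected libraries. Of 13777 genes in the deposited table, 4885 were silent in this sense in untreated cells, and 125 of these (2.56%) met both limits. NLaz, Cht9 and GstD4 and 7 genes named as long noncoding or antisense RNAs were then left out, which gave the 115. The annotation calls 114 of them protein coding. The remaining identifier, FBgn0036125, has no entry in the annotation and is given by its identifier only. The opposite pattern, at least 1 CPM in both untreated libraries and at most 0.5 CPM in all 6 transfected libraries, was found in 0 of 7366 genes. These counts are not matched, since the 7366 include highly expressed genes while the 4885 all start near 0.

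S2R+ cells are a cultured line of Drosophila melanogaster that resembles hemocytes, the blood cells of the fly, and the 3' ends of their polyadenylated transcripts were sequenced. The groups used here are untreated cells, whose treatment label reads none, and cells that overexpress 1 of the wild-type proteins after Effectene transfection, named ElavWT, FneWT and Rbp9WT, with 2 libraries each. The labels do not say whether the untreated cells received reagent or an empty construct, so the protein and the transfection itself cannot be told apart, and no source used here gives the promoter of the constructs or the time of harvest. The mutant constructs Elav3X, Fne3X and Rbp93X, changed in their RNA recognition motifs, are not analysed here.

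Elav, Fne and Rbp9 are the Drosophila members of the ELAV/Hu family, RNA-binding proteins made mainly in neurons that bind U-rich RNA. They act on alternative splicing and on cleavage and polyadenylation, and are known for favouring distal poly(A) sites, which gives many neuronal transcripts longer 3' untranslated regions. A poly(A) site is where the transcript of a gene is cleaved and tailed, and an RNA polymerase that passes it continues into the sequence downstream. Each value below is the level of a gene as a whole in CPM, not divided by transcript length, so the use of single poly(A) sites was not measured.

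The libraries held between 4694825 and 14391952 reads, and 1 CPM corresponded to between 5 and 9 reads in the transfected libraries. A limit of 0.5 CPM allowed up to 7 reads in untreated replicate 1 and up to 3 in replicate 2. Replicate 2 libraries stood apart from replicate 1 libraries in every group: ribosomal RNA genes held 15.4% to 24.8% of all replicate 2 reads but 2.91% to 5.91% of replicate 1 reads. Of 17 hemocyte markers, 6 reached 10 CPM in both untreated libraries (srp, ush, Pxn, Sr-CI, crq and NimC4), while gcm, NimC1 and PPO1 were at 0 in both. Rbp9 measured 713 and 58.8 CPM in Rbp9WT and at most 7.46 CPM elsewhere. fne measured 97.4 and 48.0 CPM in FneWT and 6.67 and 1.91 CPM in untreated cells, but ElavWT replicate 1 also had 49.8 CPM and replicate 1 of Rbp9WT 114.8 CPM. elav measured 29.2 and 26.6 CPM in ElavWT and 24.9 and 37.3 CPM in untreated cells, so that its gene-level value did not separate the ElavWT libraries from the others.

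In untreated cells the 115 genes had a median of 0.139 CPM in replicate 1 and 0.147 CPM in replicate 2. The medians were 8.04 and 2.34 CPM in ElavWT, 10.7 and 2.91 CPM in FneWT and 6.85 and 2.79 CPM in Rbp9WT. Added together, the members made up 21.1 and 16.6 CPM of the untreated libraries, 1314 and 378 CPM of ElavWT, 1483 and 437 CPM of FneWT, and 978 and 408 CPM of Rbp9WT. These differences were what chose the members and are given without a test. Since the cells were sequenced in bulk, more cells with a transcript and more transcript per cell cannot be told apart.

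Most members were low also after transfection. The lowest of the 6 transfected libraries lay at 2 CPM or more in 43 members and at 5 CPM or more in 6 (FBgn0036125, r-cup, PIP5K59B, NijC, janB and CG13202). The highest of the 6 reached 10 CPM in 77 members and 30 CPM in 13. In untreated cells 20 members had no read in either library, 34 had 1 to 3 reads over both libraries, and 61 had more, with a maximum of 10. For the 20 without a read, a floor of 3 reads over both untreated libraries (0.142 CPM) gave at least 11.99-fold to at least 168-fold higher levels in ElavWT, with the reads of both replicates pooled. The same bounds ran from 9.39-fold to 147-fold in FneWT and from 15.9-fold to 105-fold in Rbp9WT. Replicate 1 raised the upper ends: without it, replicate 2 gave at least 7.53-fold to 72.3-fold in ElavWT, 8.999-fold to 59.1-fold in FneWT and 8.45-fold to 52.1-fold in Rbp9WT. On the log2(CPM + 1) scale, which understates the change of low genes, the median difference of the 115 from untreated cells was 2.20 in ElavWT, 2.62 in FneWT and 2.21 in Rbp9WT. Over all 9286 genes whose mean over the 6 transfected libraries was 1 CPM or more it was 0.26, 0.30 and 0.42. That filter leaves out the untreated cells.

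Appearance of silent genes was common in single libraries. At least 1 CPM was reached by 889 of the 4885 silent genes in ElavWT replicate 1, 1019 in FneWT replicate 1 and 916 in Rbp9WT replicate 1. In the replicate 2 libraries the counts were 248, 346 and 304. Both replicates of a protein reached it for 214 silent genes in ElavWT (4.38%), 315 in FneWT (6.45%) and 274 in Rbp9WT (5.61%).

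**Figure D1:**
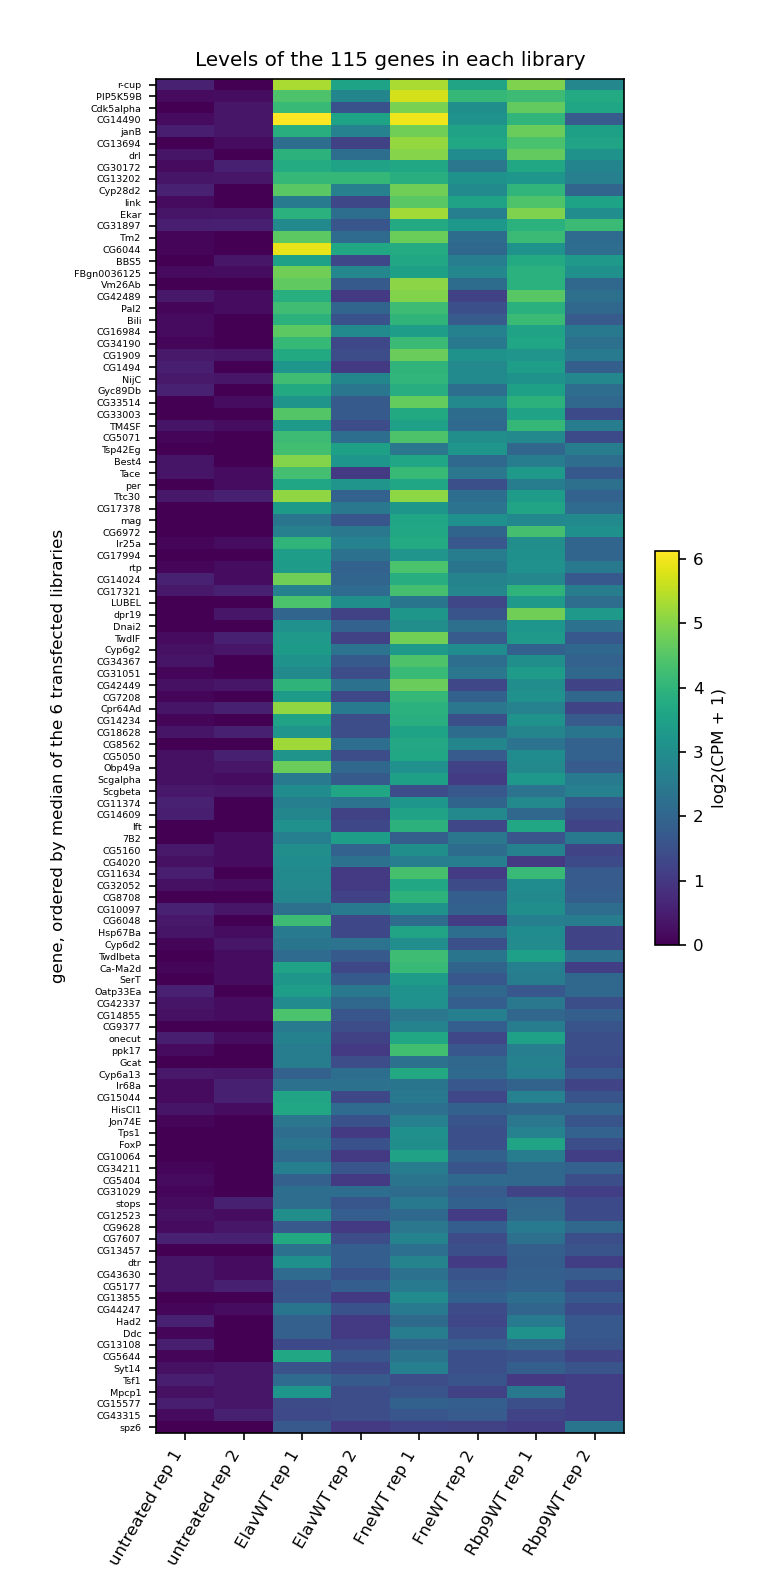
Level of each of the 115 genes (lines) in each of the 8 libraries (columns), as log2(CPM + 1) on the colour scale. Genes are ordered by their median over the 6 transfected libraries. Both untreated columns are near 0, and the replicate 1 columns of ElavWT, FneWT and Rbp9WT are brighter than their replicate 2 columns, with medians of 8.04, 10.7 and 6.85 CPM against 2.34, 2.91 and 2.79 CPM.

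The 12 members with the highest minimum over the transfected libraries came from unlike classes of genes. r-cup (FBgn0031142, chromosome X, 21023390 to 21025888, minus strand), a gene of the male germline transcribed in spermatids, measured 0.486 and 0 CPM in untreated cells. It measured 39.6 and 10.7 CPM in ElavWT, 39.9 and 10.9 CPM in FneWT, and 29.6 and 6.18 CPM in Rbp9WT. Replicate 2 was the lower of each pair. The distance from the untreated libraries follows from how these 12 were chosen and ranked. janB (FBgn0001281, chromosome 3R, 30037984 to 30038728, minus strand), also a testis gene, measured 0.417 and 0.294 CPM untreated, 13.4 and 5.54 CPM in ElavWT, 26.6 and 10.6 CPM in FneWT, and 25.5 and 10.2 CPM in Rbp9WT. It overlaps janA on the same strand, which measured 107 and 62.3 CPM in untreated cells. Without stated handling of overlaps in the counting, reads of such pairs may have been divided between them, so the level of janB is uncertain.

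NijC (FBgn0038079, chromosome 3R, 12695129 to 12697379, plus strand), of the ninjurin family of membrane proteins, measured 0.347 and 0.294 CPM untreated, 17.9 and 5.96 CPM in ElavWT, 15.3 and 6.55 CPM in FneWT, and 7.88 and 6.18 CPM in Rbp9WT. It too overlaps an active gene on its own strand, Past1, at 286 and 183 CPM in untreated cells. PIP5K59B, a phosphatidylinositol phosphate kinase gene, measured 0.139 and 0.147 CPM untreated, 20.3 and 5.96 CPM in ElavWT, 51.6 and 15.8 CPM in FneWT, and 17.5 and 12.4 CPM in Rbp9WT. PIP5K59B overlaps EMC8-9 on the opposite strand, at 80.9 and 35.1 CPM untreated, and its level is uncertain because counting by strand is not stated. Its highest library was FneWT replicate 1. FBgn0036125 measured 0.139 and 0.147 CPM untreated, 26.9 and 6.18 CPM in ElavWT, 10.2 and 6.18 CPM in FneWT, and 14.2 and 7.37 CPM in Rbp9WT.

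Among the remaining 7, drl, the Ryk-family receptor for Wnt5 in axon guidance, measured 0.278 and 0 CPM untreated, 14.4 and 3.62 CPM in ElavWT, 31.1 and 6.91 CPM in FneWT, and 24.0 and 7.77 CPM in Rbp9WT. Ekar (FBgn0039916, chromosome 4, 636131 to 646556, minus strand), a kainate-type glutamate receptor subunit of the eye, measured 0.278 and 0.294 CPM untreated, 14.1 and 3.62 CPM in ElavWT, 37.7 and 5.28 CPM in FneWT, and 29.9 and 6.97 CPM in Rbp9WT. Gyc89Db, an atypical soluble guanylyl cyclase subunit, ran from 3.59 to 13.05 CPM over the transfected libraries against 0.486 and 0 CPM. The unnamed genes CG13202, CG16984, CG30172 and CG17321 had minima of 5.38, 4.58, 4.37 and 3.41 CPM and maxima of 15.9, 22.8, 12.5 and 18.9 CPM. CG13202 hardly differed between the ElavWT replicates, at 15.9 and 15.8 CPM. CG16984 and CG30172 overlap expressed genes on the opposite strand, CG12182 and CG3163, and their levels are uncertain because counting by strand is not stated.

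No member was on the lists of hemocyte, glia, fat body, photoreceptor, immune-induced or seminal fluid genes, which hold 4, 6, 8, 8, 21 and 40 silent genes. All other lists of named genes contributed between 1 and 4 members. Of all 4418 silent genes after leaving out noncoding and named ones, 2.60% were members, and 56 of the 115 have only a CG number as their name. The lists were written with earlier results of these data known, and their counts are descriptions.

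Neuron markers gave 2 members of 7 silent genes on a list of 40. SerT, the serotonin transporter, measured 0 and 0.147 CPM untreated, 8.46 and 2.34 CPM in ElavWT, 9.44 and 2.18 CPM in FneWT, and 4.91 and 3.19 CPM in Rbp9WT. Ddc, the dopa decarboxylase that makes dopamine and serotonin, measured 0.0695 and 0 CPM untreated, 2.68 and 1.07 CPM in ElavWT, 4.97 and 1.82 CPM in FneWT, and 7.88 and 2.19 CPM in Rbp9WT. The silent neuron markers that were not members were Tdc2, VAChT, VGlut, nAChRbeta2 and ple. The summed level of all 40 markers was 736 and 977 CPM untreated, 2454 and 1120 CPM in ElavWT, 2360 and 1251 CPM in FneWT, and 2217 and 1219 CPM in Rbp9WT. It was thus highest in the same replicate 1 libraries in which most members were highest, and its part in the members' levels was not tested. A rise of this kind was not particular to the neuron list. The female germline and eggshell list held 219 and 227 CPM untreated, then 612 (ElavWT), 604 (FneWT) and 564 CPM (Rbp9WT) in replicate 1. The fat body list went from 263 and 283 CPM to 360, 428 and 346 CPM in the same order. The muscle, male germline, immune-induced and stress lists did not exceed both untreated libraries in every replicate 1 library. Tdc2, which marks octopamine and tyramine neurons, was at 0 in both untreated libraries, and no marker of the neuron list was at 0 in all 8 libraries.

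Further members known from neurons or sensory cells were not on that list and were picked from the member names after their values were seen. For per, HisCl1, 7B2 and FoxP no count of comparable silent genes was made, so they are examples and give no share. per, the clock gene, measured 0 and 0.147 CPM untreated and 1.82 to 11.3 CPM in the transfected libraries. HisCl1, a histamine-gated chloride channel, ran from 2.73 to 11.8 CPM, and 7B2, a helper protein of neuropeptide processing, from 2.05 to 9.59 CPM. HisCl1 overlaps Sbf on the opposite strand, at 24.0 and 10.6 CPM untreated. onecut, a homeodomain transcription factor and the 1 member of 35 silent patterning and neural transcription factors, measured 0.417 and 0.147 CPM untreated and 1.28 to 11.8 CPM after transfection. FoxP, a forkhead transcription factor, had no untreated read and ran from 1.79 to 10.8 CPM. Chemoreceptor and odorant-binding genes gave 3 members of 83 silent genes. Among them the ionotropic receptor coreceptor Ir25a measured 0.0695 and 0.147 CPM untreated, 15.1 and 5.54 CPM in ElavWT, 12.4 and 2.18 CPM in FneWT, and 7.08 and 2.99 CPM in Rbp9WT. Ir68a ran from 1.39 to 4.22 CPM and Obp49a from 1.27 to 25.8 CPM.

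Muscle genes gave 1 member of 10 silent genes. Tm2 (FBgn0004117, chromosome 3R, 15310193 to 15315197, plus strand), tropomyosin 2, measured 0.0695 and 0 CPM untreated, 23.0 and 3.41 CPM in ElavWT, 25.8 and 3.46 CPM in FneWT, and 17.01 and 3.39 CPM in Rbp9WT. Its replicate 2 values were nearly the same with all 3 proteins and far below those of replicate 1. The eggshell gene Vm26Ab, the 1 member of 15 silent female germline and eggshell genes, had no untreated read and measured 23.5 and 2.34 CPM in ElavWT, 32.6 and 3.46 CPM in FneWT, and 14.0 and 3.19 CPM in Rbp9WT. Of the 19 silent genes on the male germline list janB was the 1 member, and 8 of the 27 measured genes of that list were at 0 in all 8 libraries. The member r-cup, also a male germline gene, was not on that list. The ciliary gene Ttc30, singled out after its values were seen, measured 33.4 and 2.77 CPM in ElavWT, 32.7 and 3.64 CPM in FneWT, and 9.36 and 2.79 CPM in Rbp9WT.

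Detoxification genes gave 4 members of 83 silent genes, all cytochrome P450 genes. Cyp28d2 measured 0.486 and 0 CPM untreated, 22.6 and 5.33 CPM in ElavWT, 27.0 and 6.55 CPM in FneWT, and 15.3 and 2.99 CPM in Rbp9WT. Cyp6g2, Cyp6a13 and Cyp6d2 peaked at 9.16, 12.2 and 6.96 CPM. Cuticle and chitin genes gave 3 of 118: TwdlF ran from 1.28 to 27.3 CPM, Twdlbeta from 2.34 to 17.6 CPM and Cpr64Ad from 1.39 to 33.6 CPM. Genes named as transporters or channels gave 3 of 33: the bestrophin Best4 ran from 3.27 to 30.7 CPM, the degenerin/ENaC channel subunit ppk17 from 1.07 to 18.4 CPM, and the organic anion transporter Oatp33Ea from 2.17 to 9.73 CPM. Lists of digestive enzymes, stress genes and secreted ligands gave 1 member each. These were the serine protease Jon74E (1.92 to 5.34 CPM), the small heat shock gene Hsp67Ba (1.39 to 10.9 CPM) and spz6, of the Spätzle family of Toll ligands (1.07 to 4.18 CPM).

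The members more often had an active gene next to them than other silent genes did, most of all upstream. An active gene, meaning a mean of at least 10 CPM in untreated cells, ended within 2000 bp upstream on the same strand for 44 of 114 members with an annotated position (38.6%). The same was true of 354 of 4214 other silent protein-coding genes (8.40%) and of 2395 of 12868 protein-coding genes in the table (18.6%). Active genes in other arrangements differed less: 17.5% of members had one downstream on the same strand against 8.23% of other silent genes. Head to head it was 12.3% against 6.57%, and tail to tail 19.3% against 7.88%. Among all protein-coding genes these shares were 17.5% downstream, 26.3% head to head and 17.5% tail to tail. An active gene anywhere within 2000 bp was present for 63.2% of members, 35.0% of other silent genes and 63.3% of all protein-coding genes. Against all protein-coding genes, only the upstream share of the members was much higher. This comparison was added after the data were seen, positions were read from Ensembl's BDGP6 annotation (dm6), and no test was made.

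Read the other way, the share of silent protein-coding genes that were members fell with the distance to an active upstream gene. It was 14.3% of 189 genes with a gap under 500 bp and 12.5% of 80 genes with a gap of 500 to 1000 bp. It was 5.47% of 128 genes between 1000 and 2000 bp, 3.82% of 314 genes between 2000 and 5000 bp, and 1.61% of 3604 genes farther away. Genes with no active gene upstream on their strand are in none of these classes. The median gap of the 44 pairs was 386 bp, with a range from 26 to 1996 bp. With no upstream active gene within 2000 bp, an active neighbour downstream on the same strand went with 3.45% of 290 genes. Head to head it went with 3.86% of 233 and tail to tail with 4.67% of 300. At least 1 read in untreated cells was itself more frequent among members (82.5%) than among other silent protein-coding genes (34.6%), and its part in this pattern was not tested.

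**Figure D2:**
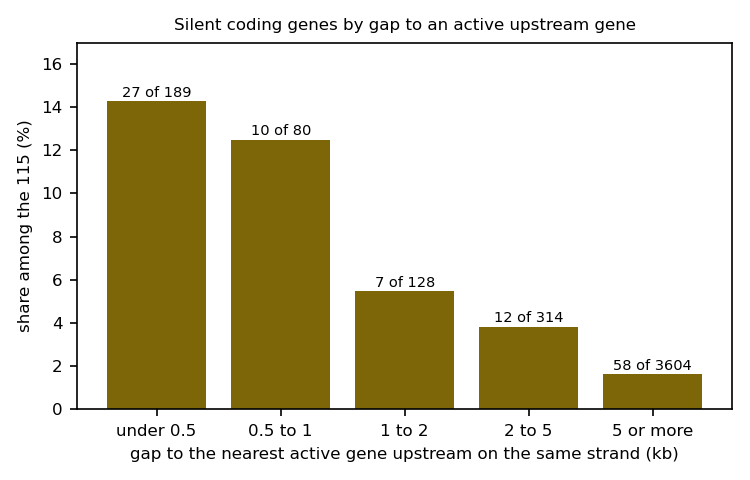
Share of silent protein-coding genes that belong to the 115 (vertical axis, %) by the gap to the nearest active gene upstream on the same strand (horizontal axis, kb). The numbers over the bars give members of silent genes in each class. The share falls from 14.3% under 500 bp to 1.61% at 5000 bp or more.

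The upstream neighbours were expressed in every library, and the members came up beside them at a small part of their level. Over the 44 pairs the neighbours' median was 60.1 and 45.2 CPM in untreated cells, 71.5 and 45.4 CPM in ElavWT, 75.3 and 43.3 CPM in FneWT, and 77.7 and 59.96 CPM in Rbp9WT. The member's level as a percentage of its neighbour's had a median of 0.113% and 0.0183% in untreated cells. After transfection that median was 13.6% and 5.30% with ElavWT. It was 17.3% and 8.39% with FneWT, and 10.8% and 5.06% with Rbp9WT. The untreated percentages follow from the limits that chose the members and their neighbours. The minimum of 1 CPM in each transfected library also raised the percentages after transfection, so the rise is a description. After transfection r-cup exceeded its neighbour in several libraries, with up to 284% of CG1532 in FneWT replicate 1, and the other members above theirs were CG33003 in ElavWT replicate 1 and Cdk5alpha and Tace in FneWT replicate 1.

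Single pairs covered a wide range of levels. CG4020 (gap 346 bp) follows the cytoplasmic actin gene Act5C, which measured 2548 and 1248 CPM in untreated cells and 977 to 2874 CPM after transfection. CG4020 itself measured 0.208 and 0.147 CPM untreated and 1.03 to 6.91 CPM after transfection, at most 0.392% of its neighbour. Ir25a (gap 34 bp) follows tank, at 26.8 and 25.4 CPM untreated and 15.5 to 24.5 CPM after transfection, and reached 97.3% of it in ElavWT replicate 1. Tm2 lies 1413 bp downstream of Tm1, the other tropomyosin gene, which measured 232 and 462 CPM untreated and 195 to 615 CPM after transfection. Ddc lies 1038 bp downstream of Phb1, a prohibitin gene at 335 and 168 CPM untreated, and reached at most 3.79% of it. Spearman's rho between the members' level and the neighbours' level in the same library lay between −0.03 and 0.16 over the 44 pairs. The pairs share library and depth, and the limits that chose the members narrowed their range. These values therefore cannot show whether a member's level depends on its neighbour's.

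The neighbours' own levels were compared with untreated cells. In a fit that includes the replicate number, limma with Benjamini-Hochberg adjustment passed 3 of the 44 in ElavWT, all higher, against 6.61% of 5597 active genes (4.86% higher). It passed 3 in FneWT against 11.5% (8.47% higher) and 3 in Rbp9WT against 13.8% (12.6% higher), again all higher on the scale of the deposited CPM. Orai, a store-operated calcium channel gene and the neighbour of CG14490, passed with each protein, as did Clbn, the neighbour of Bili. mRpS6 passed in ElavWT and CG32982 in FneWT and Rbp9WT. Orai measured 30.4 and 69.2 CPM untreated, 115 and 107 CPM in ElavWT, 121 and 97.9 CPM in FneWT, and 151 CPM in both Rbp9WT libraries. Its log2 differences were 1.25 ± 0.32 (SE; adjusted p = 0.0132), 1.23 ± 0.32 (adjusted p = 0.0103) and 1.70 ± 0.32 (adjusted p = 0.000676) by limma.

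The median log2 difference of the neighbours was −0.14 in ElavWT, −0.08 in FneWT and 0.01 in Rbp9WT, beside 0.02, 0.01 and 0.18 over all active genes. Fitted on group alone, limma passed 0 of the 44 and 0.0% of active genes with each protein. The counts in the fit with the replicate number depended on single libraries. Without untreated replicate 2 they were 10, 16 and 7, while 30.6%, 38.2% and 37.7% of all tested genes passed, against 10.1%, 17% and 18.5% with every library. Without untreated replicate 1 they were 1, 0 and 1, beside 3.12%, 5.45% and 6.05%. Without replicate 1 of the protein concerned they were 1, 0 and 2, beside 3.64%, 2.84% and 6.91%, and in FneWT the count was 1 without its replicate 2 (10.6%). The same fit on median-ratio scaled values passed 3, 11 and 4, beside 10.7%, 18.8% and 15.3%. The direction depended on the scaling too, since 8 of these 11 in FneWT and 2 of the 4 in Rbp9WT were lower.

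**Figure D3:**
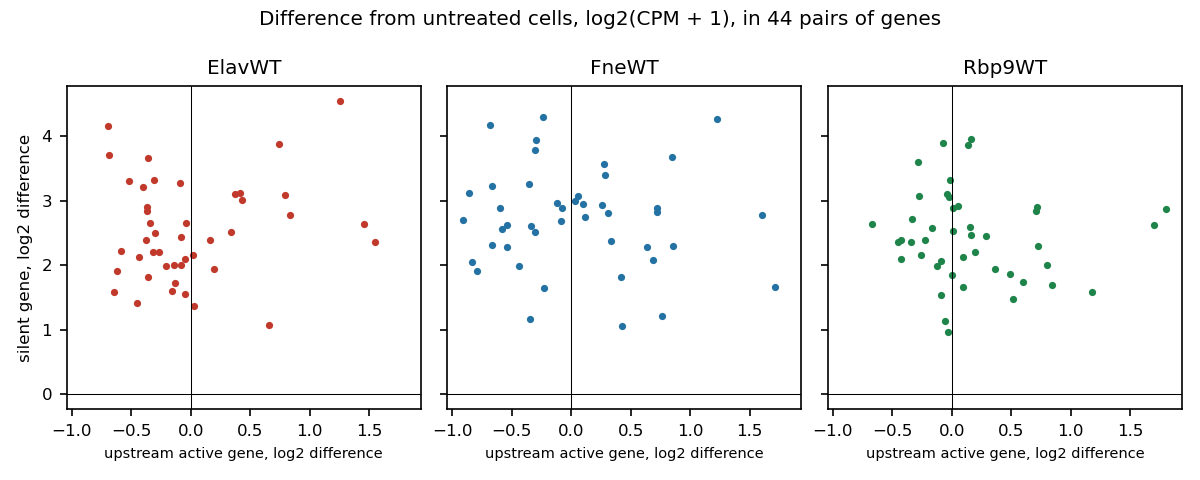
Difference from untreated cells on the log2(CPM + 1) scale in 44 pairs of genes, with the active upstream gene on the horizontal axis and the silent member downstream of it on the vertical axis, for each protein. Each point is 1 pair. Vertical positions are above 0 because the members were chosen so, while horizontal positions lie on both sides of 0 (medians −0.14, −0.08 and 0.01).

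Members with and without an active upstream gene passed the same limits, so their levels are given as a description. The 70 without one had medians of 7.19 and 2.34 CPM in ElavWT, 10.4 and 2.73 CPM in FneWT, and 5.59 and 2.79 CPM in Rbp9WT. The 44 with one had medians of 9.52 and 2.24 CPM, 11.7 and 3.46 CPM, and 7.65 and 2.99 CPM. These were higher in every transfected library except ElavWT replicate 2, and the difference was not tested. In other features, the members' genes spanned a median of 2352 bp against 1454 bp for other silent genes and 2308 bp for all protein-coding genes. A gene with 1 exon was less frequent, with 14.0% against 26.4% and 15.1%. Overlap with another gene was found for 48 members (42.1%, against 39.4%), and overlap with an active gene for 17 (14.9%, against 13.7%). The levels of these 17 are uncertain, since counting by strand and the handling of overlaps are not stated. Only LUBEL, the linear ubiquitin chain ligase, and CG17378 lay within 5000 bp of each other, transcribed in opposite directions on chromosome 2L from starts 1285 bp apart. Neither had a read in untreated cells, and CG17378 measured 9.02 and 4.47 CPM in ElavWT, 8.45 and 4.002 CPM in FneWT, and 10.8 and 3.39 CPM in Rbp9WT.

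Differences among the 3 proteins were not used to choose the members and were tested over the 9286 genes that averaged 1 CPM or more in the 6 transfected libraries. Fitted on group alone, limma on log2(CPM + 1) passed 0 members in each of the 3 contrasts, and 0.0% of all genes. At an unadjusted p under 0.05 there were 3 members in FneWT against ElavWT, 4 in Rbp9WT against ElavWT and 0 in Rbp9WT against FneWT, beside 0.528%, 0.732% and 0.172% of all genes. edgeR on the recovered reads passed 0 genes in each contrast, and DESeq2 passed 2, 1 and 1 genes, of which 0 were members. Same-numbered libraries deviated together, and all calls below come from the fit with the replicate number as a term. Nothing in the labels ties a replicate number to a shared day or batch, or shows that replicates were grown separately. The p-values therefore reflect the spread among these libraries alone, which may be technical.

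FneWT against ElavWT passed 6 members, 3 higher and 3 lower, against 1.39% of all genes (1.15% higher and 0.237% lower). CG13694 (FBgn0031219, chromosome 2L, 115365 to 116488, minus strand) measured 3.67 and 1.28 CPM in ElavWT, 34.8 and 11.5 CPM in FneWT, and 19.5 and 10.96 CPM in Rbp9WT, against 0 and 0.147 CPM untreated. Both FneWT libraries lay above both ElavWT libraries, with a log2 difference of 2.70 ± 0.35 (SE) and an adjusted p of 7.98e-05 by limma. Groups without overlap, in either direction, were found for 20 members (17.4%) and 14.6% of all tested genes in this contrast. CG13694 overlaps ND-15, a gene on the opposite strand at 146 and 284 CPM in untreated cells, and whether reads were counted by strand is not stated. link measured 4.65 and 1.49 CPM in ElavWT, 22.4 and 10.6 CPM in FneWT, and 20.7 and 10.8 CPM in Rbp9WT. It was 2.13 ± 0.34 higher in FneWT than in ElavWT on the log2 scale (limma adjusted p = 0.00150).

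PIP5K59B was 1.29 ± 0.33 higher (limma adjusted p = 0.0462), although its FneWT replicate 2 of 15.8 CPM lay below its ElavWT replicate 1 of 20.3 CPM. In the other direction, CG6044 measured 59.3 and 11.7 CPM in ElavWT, 12.7 and 3.09 CPM in FneWT, and 7.65 and 3.59 CPM in Rbp9WT. FneWT was lower in each replicate, while FneWT replicate 1 overlapped with ElavWT replicate 2, and the log2 difference was −1.89 ± 0.36 (limma adjusted p = 0.00689). CG6044 overlaps VepD on its own strand, which had no untreated read and measured at most 3.81 CPM, in ElavWT replicate 1. Its level is uncertain for that reason. LUBEL measured 20.02 and 7.24 CPM in ElavWT, 4.22 and 1.46 CPM in FneWT, and 8.79 and 3.59 CPM in Rbp9WT, with no untreated read. Its FneWT libraries lay below both ElavWT libraries (log2 difference −1.88 ± 0.37, limma adjusted p = 0.00778). Scgbeta, a sarcoglycan of the dystrophin complex, measured 6.91 and 11.3 CPM in ElavWT, 1.74 and 2.18 CPM in FneWT, and 3.99 and 5.38 CPM in Rbp9WT. It was likewise lower in FneWT without overlap (−1.74 ± 0.38, limma adjusted p = 0.0188), and it overlaps pps on the opposite strand, at 11.3 and 28.2 CPM untreated.

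CG13694 and link kept their FneWT calls under each alternative that was combined with the replicate number. The count of 6 was 13 without ElavWT replicate 2, when 2.17% of all genes passed, and 10 without ElavWT replicate 1 (2.74%). It was 7 without FneWT replicate 1 (5.65%), 2 without FneWT replicate 2 (0.597%) and 2 with all 8 libraries in the fit (0.176%).

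Rbp9WT against ElavWT passed 11 members, 5 higher and 6 lower, against 3.2% of all genes (2.79% higher and 0.409% lower). The libraries of these groups did not overlap, in either direction, for 29 members (25.2%) and 20.4% of all tested genes. The median of all genes lay 0.15 above 0 on the log2 scale in this contrast and −0.03 with median-ratio scaling. The log2 differences below are as fitted, and their p-values test them against 0. dpr19, of a family of neuronal immunoglobulin-domain surface proteins, measured 0 and 0.294 CPM untreated, 2.96 and 1.28 CPM in ElavWT, 8.45 and 2.00 CPM in FneWT, and 26.7 and 8.96 CPM in Rbp9WT. Both Rbp9WT libraries lay above all ElavWT and FneWT libraries, and the log2 difference to ElavWT was 2.47 ± 0.38 (SE; limma adjusted p = 0.000482). CG13694 and link were higher in Rbp9WT than in ElavWT by 2.26 ± 0.35 and 2.09 ± 0.34 (limma adjusted p = 0.000482 and 0.000900). CG31897 measured 6.48 and 2.13 CPM in ElavWT, 12.3 and 8.55 CPM in FneWT, and 14.2 and 16.9 CPM in Rbp9WT, the only one of the 11 whose Rbp9WT replicate 2 was its highest library. Its log2 difference was 1.77 ± 0.37 (limma adjusted p = 0.00763).

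Cdk5alpha, an activator of the neuronal kinase Cdk5, was the fifth higher member, at 16.5 and 1.92 CPM in ElavWT and 24.2 and 11.4 CPM in Rbp9WT (1.30 ± 0.36, limma adjusted p = 0.0428). Its ElavWT replicate 1 lay above its Rbp9WT replicate 2, and the call was not made with median-ratio scaling, edgeR or DESeq2. Lower members were led by CG6044 (−2.14 ± 0.36, limma adjusted p = 0.00114), whose Rbp9WT libraries lay below both ElavWT libraries. CG14490 measured 68.7 and 10.7 CPM in ElavWT, 61.4 and 7.82 CPM in FneWT, and 15.4 and 2.39 CPM in Rbp9WT, against 0.139 and 0.294 CPM untreated. In each replicate it was lower in Rbp9WT than in ElavWT (−1.93 ± 0.31, limma adjusted p = 0.000770) and than in FneWT.

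Cpr64Ad, a cuticle protein gene, measured 33.6 and 4.69 CPM in ElavWT and 5.59 and 1.39 CPM in Rbp9WT (−1.82 ± 0.38, limma adjusted p = 0.00719). Its ElavWT replicate 2 lay below its Rbp9WT replicate 1. It overlaps a gene on its own strand, CG43367, at 7.37 and 21.6 CPM in untreated cells, and its level is uncertain for that reason. Best4 measured 30.7 and 8.31 CPM in ElavWT and 5.02 and 3.59 CPM in Rbp9WT (−1.71 ± 0.38, limma adjusted p = 0.0112). Tsp42Eg, a tetraspanin gene with no untreated read, measured 18.2 and 10.2 CPM in ElavWT, 4.35 and 8.37 CPM in FneWT, and 3.08 and 4.98 CPM in Rbp9WT (−1.57 ± 0.39, limma adjusted p = 0.0250). CG4020 was lower as well, at 6.91 and 3.83 CPM in ElavWT against 1.03 and 1.59 CPM (−1.43 ± 0.39, limma adjusted p = 0.0425). Best4, Tsp42Eg and CG4020 had no overlap between the ElavWT and Rbp9WT libraries, as had 20.4% of all tested genes. CG4020 was not called with median-ratio scaling, edgeR or DESeq2. Relative to the median gene, which was not tested, the higher members lay between 1.16 (Cdk5alpha) and 2.32 (dpr19), and the lower ones between −2.28 (CG6044) and −1.58 (CG4020). The count of 11 was 1 without Rbp9WT replicate 1 (0.130% of all genes passed), 4 without Rbp9WT replicate 2 (0.256%), 17 without ElavWT replicate 2 (4.08%), and 4 with all 8 libraries in the fit (0.592%).

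Rbp9WT against FneWT passed 1 member, CG14490, against 0.0431% of all genes in either direction and 0.0215% lower. It was lower in Rbp9WT in both replicates. Its log2 difference was −1.65 ± 0.31 (SE; limma adjusted p = 0.0396), or −1.77 relative to the median gene, which lay at 0.11. The call was lost without FneWT replicate 2, without either Rbp9WT library and with all 8 libraries in the fit, and without FneWT replicate 1 the count was 3 while 6.62% of all genes passed. CG14490 overlaps thr on the opposite strand (5.63 and 4.55 CPM untreated, 3.11 to 6.20 CPM after transfection) and lies 177 bp downstream of Orai, which was 151 CPM in both Rbp9WT libraries.

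**Figure D4:**
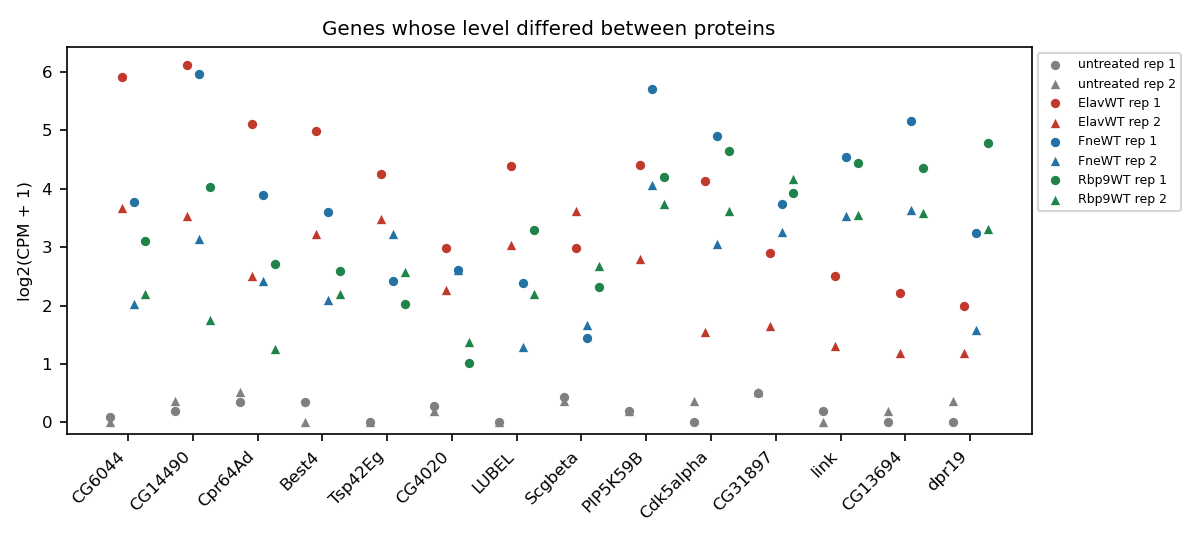
Levels of the 14 members that passed in a contrast between proteins, as log2(CPM + 1), in all 8 libraries. Circles are replicate 1 and triangles replicate 2, and colours give the group. CG13694, link and dpr19 are lower in ElavWT than in Rbp9WT in both replicates, CG6044, CG14490 and Best4 are higher, and all untreated points lie near 0.

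Over all 115 members, those that passed included, the median log2 difference was 0.19 in FneWT against ElavWT, −0.12 in Rbp9WT against ElavWT and −0.30 in Rbp9WT against FneWT, beside 0.04, 0.15 and 0.11 over all tested genes. FneWT was higher than ElavWT in both replicates for 57 members and lower for 29, against 31.8% and 21.8% of all genes. Rbp9WT was higher than ElavWT in both replicates for 37 and lower for 42, against 44.3% and 18.7%. Rbp9WT was higher than FneWT in both replicates for 16 and lower for 58, against 35.8% and 20.1%. These contrasts share libraries and are given side by side.

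The order of the members within a library was shared in part. FneWT replicate 1 held the highest value of 60 members, ElavWT replicate 1 of 37, Rbp9WT replicate 1 of 13, and the 3 replicate 2 libraries of 5 together. Spearman's rho over the 115 genes was 0.77 between FneWT and Rbp9WT replicates 1, 0.51 between ElavWT and FneWT replicates 1, and 0.42 between ElavWT and Rbp9WT replicates 1. Between both replicates of 1 protein it was 0.49 in ElavWT, 0.50 in FneWT and 0.58 in Rbp9WT, and it was 0.07 to 0.09 between ElavWT replicate 2 and the replicate 1 libraries of FneWT and Rbp9WT. Single reads weigh more in replicate 2, where 1 read was worth 0.182 to 0.213 CPM.

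More members passed for the replicate number than in any contrast between proteins. These tests are unlike, since the former sets 3 libraries against 3 and each contrast 2 against 2. Replicate 1 was above replicate 2 in 108 members with ElavWT, 109 with FneWT and 104 with Rbp9WT, and in 98 members with all 3. The ratio of replicate 1 to replicate 2 had a median of 3.12 in ElavWT, 3.04 in FneWT and 2.36 in Rbp9WT. In a limma fit with group and replicate number, 88 members passed, 87 of them lower in replicate 2 and 1 higher, against 63.0% of all genes, 53.4% lower and 9.54% higher. The members' median log2 difference was −1.18 against −0.66 over all genes. With median-ratio scaling 53 members passed, 51 of them lower, beside 29.8% of all genes lower.

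CG42489 had the largest difference, at 13.3 and 1.07 CPM in ElavWT, 30.1 and 1.27 CPM in FneWT, and 22.1 and 3.78 CPM in Rbp9WT. Every replicate 2 value of it was below every replicate 1 value (log2 difference −2.94 ± 0.32, limma adjusted p = 3.91e-08). CG42489 overlaps Sys1 on the opposite strand, at 72.7 and 80.6 CPM untreated, and whether reads were counted by strand is not stated. CG14490, Vm26Ab, Ttc30 and CG11634 followed with −2.56, −2.54, −2.50 and −2.50. At the other end CG43315, Tsf1, CG4020, CG15577 and CG31029 barely differed. Tsf1, the iron-binding transferrin of the hemolymph, measured 3.38 and 2.34 CPM in ElavWT, 1.74 and 2.00 CPM in FneWT, and 1.03 and 1.20 CPM in Rbp9WT. The 1 member higher in replicate 2 was 7B2, with 5.22 and 9.59 CPM, 2.61 and 4.37 CPM, and 2.05 and 4.58 CPM (0.74 ± 0.31, limma adjusted p = 0.0392). Scgbeta was the other member with replicate 2 above replicate 1 for all 3 proteins, and it did not pass.

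**Figure D5:**
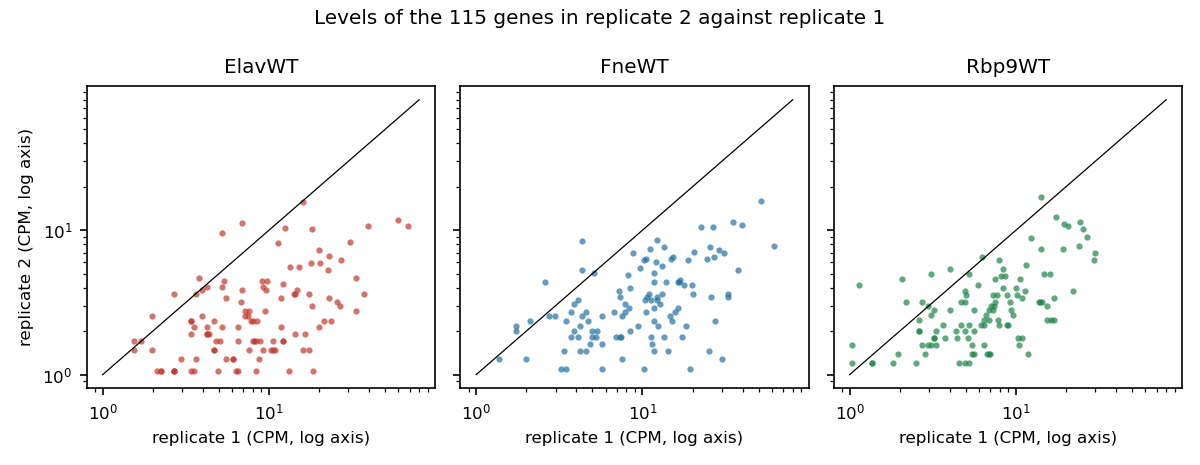
Level of the 115 genes in replicate 2 (vertical axis) against replicate 1 (horizontal axis) in CPM on log axes, for ElavWT, FneWT and Rbp9WT, with the line of equal levels. Each point is 1 gene. Most points lie below the line, with 108, 109 and 104 of 115 genes higher in replicate 1.

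Both limits passed through a dense range of genes. Just inside the limit in untreated cells lay Had2, Oatp33Ea and r-cup with a maximum of 0.486 CPM, and just outside it CG18568, CG31808 and CG32457 with 0.556 CPM. CG18568 measured 30.6 and 11.9 CPM in ElavWT, 80.5 and 25.3 CPM in FneWT, and 53.6 and 33.5 CPM in Rbp9WT, more than most of the 115. Just inside the limit in transfected cells were CG4020 and Tsf1 with a minimum of 1.03 CPM and CG10064 with 1.07 CPM, and just outside it CG42633, Cyp4d1 and Dred with 0.996 CPM.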

How the data were processed

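The deposited table holds 1 level per gene in CPM for 13777 genes in 8 libraries, computed by the authors from read counts. Per the submitters' processing notes the build is dm6. The aligner, the counter and the use of strand in counting are not stated. Groups and replicate numbers come from the sample titles, and 0 columns of values were left unused. The worth of 1 read was recovered from the spacing of the values, which made 100% of them whole reads within 0.01 of a read. The deposited CPM of a gene measured here thus rest on 4694825 to 14391952 reads per library, and floors and limits in reads cover counting error only. Identifiers were matched to the Ensembl annotation for 13684 genes, and 93 had no match.

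Contrasts were fitted with limma 3.58.1 (trend, robust) under R 4.3.3 on log2(CPM + 1), in the 6 transfected libraries, for genes that averaged 1 CPM or more, with Benjamini-Hochberg adjustment over all genes tested and a threshold of 0.05. The neighbours were fitted with all 8 libraries. The planned fit has the group as its only term. Libraries with the same number deviated together from their groups, with correlations of 0.55 to 0.87 over 9114 genes in all 6 pairs of groups, so the replicate number was taken to pair the libraries. That pairing rests on the data, not on the labels. edgeR 4.0.16 and DESeq2 1.42.0 on the recovered reads were alternatives. The fits were tested on simulated data.

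The members and lists were chosen with earlier results of these data known. Genes were named by rule: the 12 members with the highest minimum over the transfected libraries, at most 6 passing members per contrast between proteins, the 5 largest and 5 smallest differences between replicates, members on the lists, members within 5000 bp of each other, and 3 genes on each side of each limit. The other 5 passing members of Rbp9WT against ElavWT and the neighbour pairs were named after their values were seen. Genome sequence is not used here.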

Additional observations from a re-analysis of the deposited data

Results flagged for a closer look

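Members whose level differed between proteins, in the limma fit with the replicate number as a term, are listed here by their unshifted log2 difference. In FneWT against ElavWT these were CG6044 (−1.89), LUBEL (−1.88), Scgbeta (−1.74), PIP5K59B (1.29), link (2.13) and CG13694 (2.70). In Rbp9WT against ElavWT they were CG6044 (−2.14), CG14490 (−1.93), Cpr64Ad (−1.82), Best4 (−1.71), Tsp42Eg (−1.57), CG4020 (−1.43), Cdk5alpha (1.30), CG31897 (1.77), link (2.09), CG13694 (2.26) and dpr19 (2.47). In Rbp9WT against FneWT it was CG14490 (−1.65). The same differences did not pass in the fit with the group alone.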

How the results depend on the processing

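The number of members was 115 as chosen. It was 55, 203 and 20 with limits of 0.25, 1 and 0 CPM in untreated cells, and 215 and 43 with limits of 0.5 and 2 CPM in transfected cells. Median-ratio scaling gave 101, of which 90 were among the 115, and a minimum of 5 reads gave 127. With 1 library left out it ran from 115 to 223, the highest without untreated replicate 1.

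With the group as the only term the contrasts between proteins passed 0 members under each alternative and each left-out library. With the replicate block, that is the pairing by replicate number, FneWT against ElavWT passed 6 members, Rbp9WT against ElavWT 11 and Rbp9WT against FneWT 1. Combined with the block, all 8 libraries gave 2, 4 and 0, log2(CPM + 0.5) gave 5, 10 and 1, no filter 6, 11 and 1, median-ratio scaling 5, 9 and 1, edgeR 4, 8 and 1, and DESeq2 5, 9 and 1. With 1 library left out the counts ran from 2 to 13, from 1 to 17 and from 0 to 3. All 8 libraries together bring 1 more group into the spread, and the cause of the lower counts was not tested. Over all genes the block gave 129, 297 and 4 calls, all 8 libraries 16, 54 and 0, median-ratio scaling 59, 117 and 2, and edgeR 43, 118 and 3.

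Replicate 2 against replicate 1 passed 88 members, 87 with log2(CPM + 0.5) or without a filter, 53 with median-ratio scaling and 76 to 81 with 1 library left out. Upstream neighbours passed 0 with the group alone. With the replicate block they passed 3, 3 and 3, with median-ratio scaling added 3, 11 and 4, and with 1 library left out 1 to 10, 0 to 16 and 1 to 7. The share of members with an active upstream gene was 46.5% and 31.6% with 5 and 20 CPM as active, 32.5% and 49.1% within 1000 and 5000 bp, and 36.0% to 39.5% with 1 untreated library left out. The share among other silent genes was then 9.66%, 5.74%, 5.51%, 15.5% and 7.64% to 8.40%. At 5 to 9 reads per CPM in transfected libraries and n = 2, the levels of the lowest members rest on few reads.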
